A study of Mus musculus with 13 samples.

Results

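In all, 10 genes of the eotaxin and interleukin-5 axis and its epithelial alarmins were followed in RNA of the whole esophagus of 4-NQO-treated mice. They were taken by symbol: the cytokines Il5 and Il13, the eotaxins Ccl11 and Ccl24, the chemokines Ccl7 and Ccl8, the alarmins Il33 and Tslp, and the receptor genes Ccr3 and Il5ra. All 10 were found among the 20054 genes measured, each under a single identifier. The study compared 6 libraries from C57/BL6 wild-type (WT) mice with 7 from dblGATA mice (Jackson #005653). Mice of both genotypes were given 4-nitroquinoline 1-oxide (4-NQO), an oral and esophageal carcinogen, during 8 weeks and only the propylene glycol vehicle during 8 further weeks, a stage labelled pre-cancer. Neither group was free of carcinogen, so every difference given here is between genotypes after the same exposure. The strain is given above for WT only, and any difference in strain background could not be told apart from the allele. Age and sex are not stated in the labels, nor whether a library came from 1 animal, so the p-values reflect library-to-library spread whose source is not stated.

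Eosinophils are granulocytes of type 2 immunity. Interleukin-5, bound by a receptor made of the Il5ra chain and a shared beta chain, drives their formation and survival, and eotaxins draw them into tissue through the chemokine receptor CCR3. Interleukin-33 and thymic stromal lymphopoietin are released by stressed epithelium and act on innate lymphoid cells, T helper cells and mast cells, which then make interleukin-5 and interleukin-13. Interleukin-13 in turn makes epithelium and fibroblasts produce eotaxin, and the esophagus is a tissue where this chain is known from allergic disease. The dblGATA allele lacks a pair of adjacent GATA-binding sites upstream of Gata1 that the eosinophil lineage needs. The comparison asks how the ligands that call for eosinophils, and the receptors that eosinophils carry, stood in treated tissue with and without this allele.

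Libraries held between 66339087 and 98195869 counts, and levels are counts per 1000000 (CPM) after TMM scaling. In WT 4 and WT 6 the ribosomal RNA gene Rn18s took 10.1% and 16.9% of the counts, against at most 3.24% elsewhere. WT 3 stood apart in eosinophil granule genes, but not in these alone. Epx, the eosinophil peroxidase, had 142 counts there and at most 2 in any other library. Prg2, the major basic protein, had 744 and at most 20. The neutrophil genes Ngp, Mmp8 and Ly6g also peaked in WT 3, with 2611, 318 and 52 counts. No other library exceeded 21, 12 and 1 for them. Mcpt8, of the mast cell and basophil list, reached 49 counts in WT 3, and 5 was the next highest. The source of this mixed granulocyte signal in WT 3 was not tested. Gata1 reached 106 counts in WT 3 but 10 at most in the rest, and since the allele alters a regulatory site and not the transcript, its RNA is a limited check of the genotype. Xist, transcribed from the inactive X chromosome of females, ranged from 0.240 to 828 CPM in WT and from 0.279 to 710 CPM in dblGATA. Of the libraries with high Xist, WT 1 to WT 4 also held 48.7 to 100.5 CPM of the Y-linked Ddx3y, and dblGATA 6 and dblGATA 7 held 23.1 and 4.39 CPM. Genes of thyroid, airway and stomach summed to 15209 CPM in WT 5 and 4529 CPM in WT 3, against at most 121 CPM in any other library.

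Of the 10 genes, 9 had enough counts to be tested, and 1 of them, Ccr3, passed the threshold (edgeR adjusted p under 0.05), lower in dblGATA. Across all 16599 genes tested, 13.5% passed, 7.1% higher and 6.39% lower in dblGATA. No ligand passed in either direction, and the median log2 fold change of the 9 genes was -0.04, beside -0.00 for all genes. A difference in response between ligands and receptors was not tested as such. Il13, with 1 to 15 counts a library, did not reach the count filter.

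**Figure D1:**
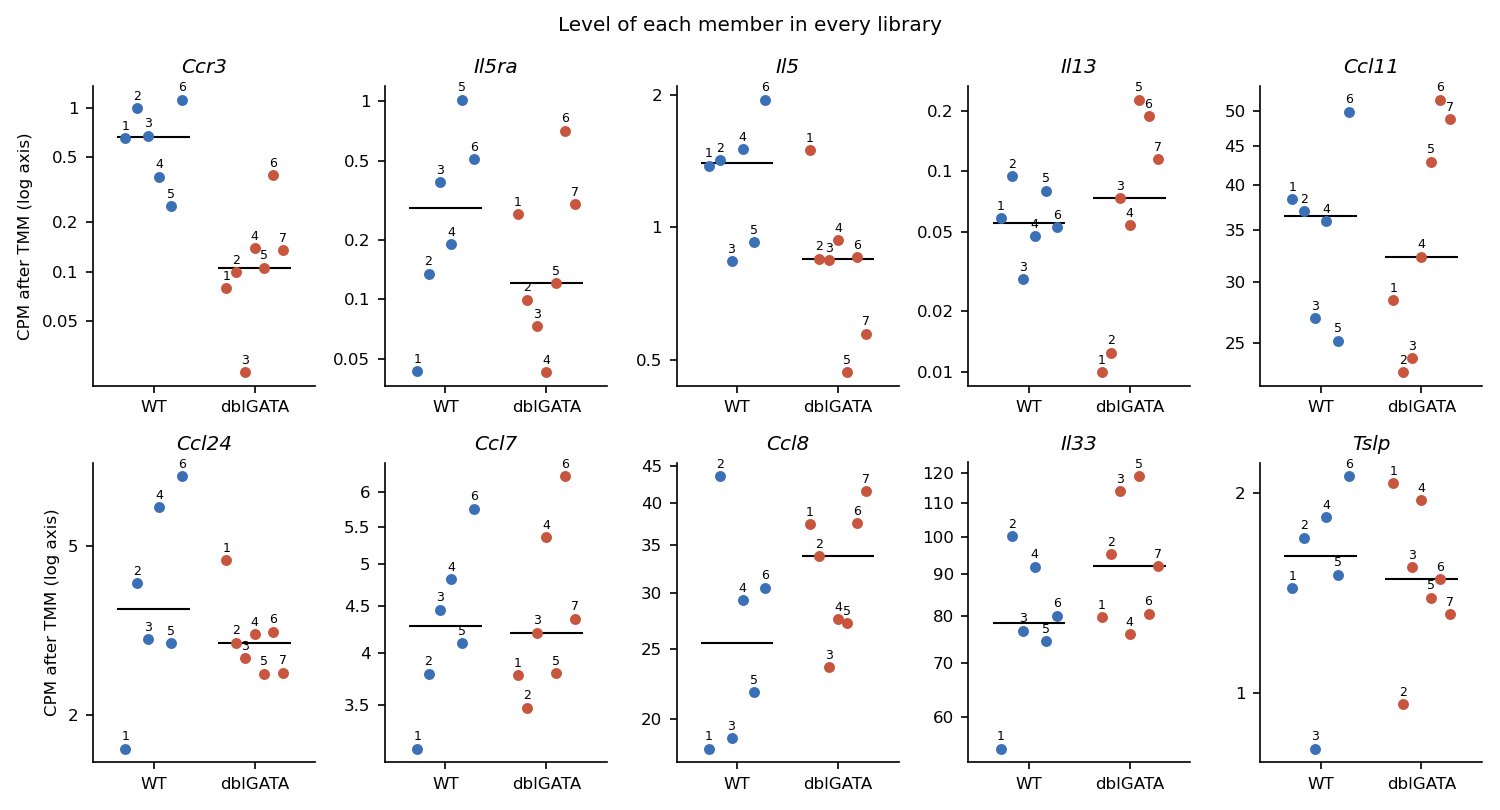
Each panel plots 1 gene, with 1 point per library numbered as in the labels (blue, 6 WT; red, 7 dblGATA), the level in CPM on a log axis and a black line at the group median. Ccr3 is the gene whose groups separate most, with dblGATA 6 (0.387 CPM) among the WT values, while the ligands overlap.

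Ccr3, the eotaxin receptor that eosinophils carry at high density, was read at 45, 74, 47, 24, 22 and 64 counts in WT 1 to WT 6. In dblGATA 1 to dblGATA 7 it had 8, 8, 2, 13, 7, 29 and 13 counts. As levels these were 0.653, 0.999, 0.678, 0.380, 0.251 and 1.12 CPM in WT and 0.0797, 0.0998, 0.0244, 0.139, 0.106, 0.387 and 0.135 CPM in dblGATA. Thus 6 of 7 dblGATA libraries lay below the lowest WT library, and dblGATA 6 lay above WT 4 and WT 5. The WT mean was 4.90 times the dblGATA mean, and the log2 fold change was -2.29 ± 0.48 (edgeR, SE, adjusted p = 0.0179). Transcript remained detectable in every dblGATA library, although 2 counts in dblGATA 3 are under the floor of 3 counts used here. In bulk RNA, fewer cells carrying Ccr3 and less Ccr3 RNA per cell cannot be told apart.

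The fall of Ccr3 held its call whichever single library was left out, with log2 fold changes from -2.77 (without dblGATA 6) to -2.09 (without WT 6) and edgeR adjusted p from 0.0137 to 0.0491. With Xist as a covariate it was -1.86 ± 0.34 (edgeR, SE, adjusted p = 0.0254). The call ended without WT 4 and WT 6 (-2.22 ± 0.53, SE, edgeR adjusted p = 0.119), with Rn18s as a covariate (-1.96 ± 0.54, adjusted p = 0.106) and with a skeletal muscle score as a covariate (-2.32 ± 0.64, adjusted p = 0.751). In those 3 fits no gene of the table passed. The authors' deposited table gives Ccr3 a log2 fold change of -2.26 and an adjusted p of 0.000315.

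**Figure D2:**
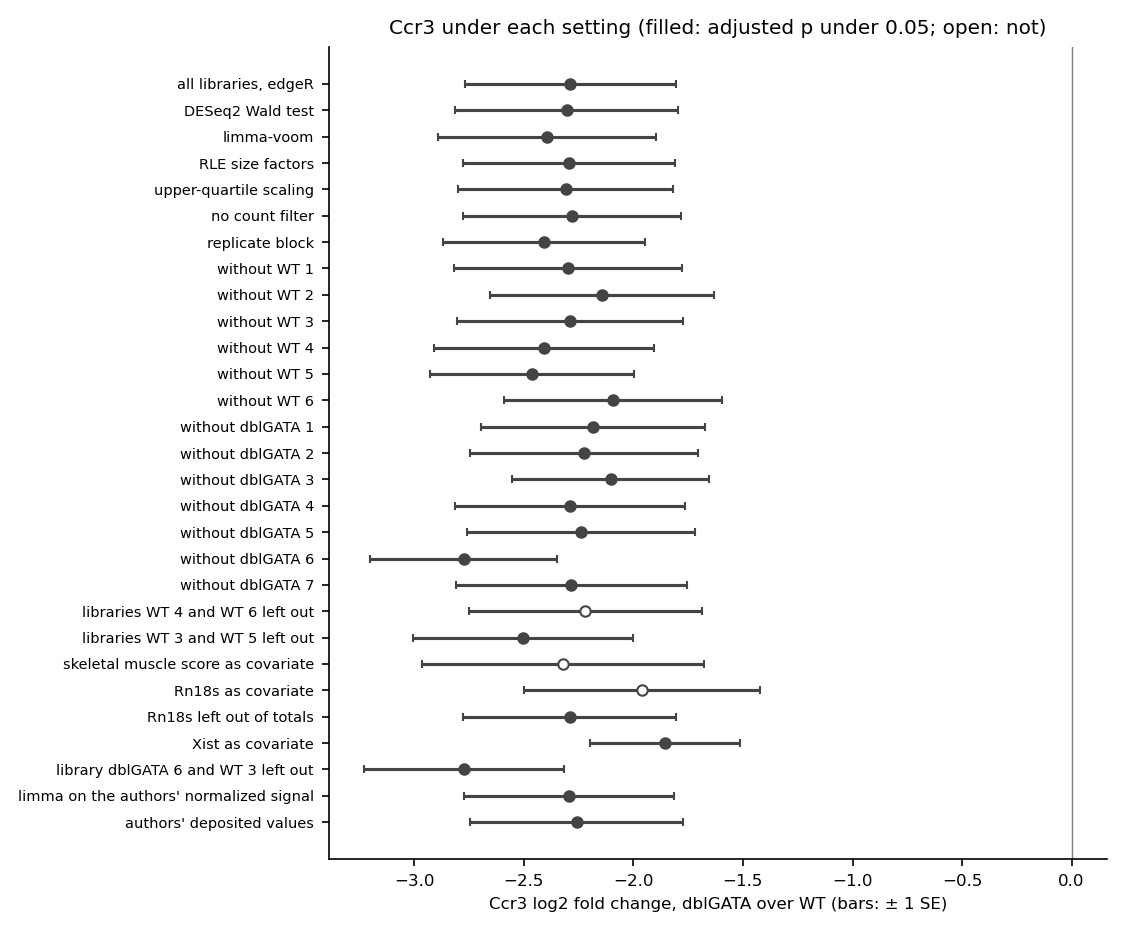
The log2 fold change of Ccr3 (dblGATA over WT, x axis) is drawn with bars of 1 SE for each setting on the y axis, filled where the adjusted p was under 0.05. Every setting lies below 0, from -2.77 to -1.86, and 3 points are open.

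Il5ra, the ligand-binding chain of the interleukin-5 receptor, is carried by eosinophils and, in mice, by B-1 cells. It had 3, 10, 27, 12, 89 and 29 counts in WT 1 to WT 6 and 27, 8, 6, 4, 8, 53 and 29 in dblGATA 1 to dblGATA 7. The groups overlapped almost fully, with the highest level in WT 5 (1.02 CPM), the next in dblGATA 6 (0.708 CPM), and the lowest in dblGATA 4 and WT 1 (0.0429 and 0.0436 CPM). The log2 fold change was -0.73 ± 0.68 (edgeR, SE, adjusted p = 0.477), an interval of 2 SE reaching from -2.09 to 0.63. It was -1.31 without dblGATA 6 and -0.12 without WT 5, the library rich in thyroid genes. The library with the most Il5ra in WT, WT 5, had the least Ccr3 of its group, whereas dblGATA 6 was highest of its group for both receptors.

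Sequences around the starts of both receptor genes are shown because the allele acts through GATA-binding sites and Ccr3 was the gene that changed. They run from 250 bases before to 50 bases after the start, from RefSeq (GRCm38.p6), 5′ to 3′ on the strand of the gene. Capitals mark the GATA word AGATAA, its variant AGATAG, the word TGATAA or its variant TGATAG, read on either strand. Which build the counts were made on is not given, so these windows serve as reference sequence only. Ccr3 lies on the plus strand at chr9:124021721-124022020 and Il5ra on the minus strand at chr6:106748988-106749287.
Ccr3: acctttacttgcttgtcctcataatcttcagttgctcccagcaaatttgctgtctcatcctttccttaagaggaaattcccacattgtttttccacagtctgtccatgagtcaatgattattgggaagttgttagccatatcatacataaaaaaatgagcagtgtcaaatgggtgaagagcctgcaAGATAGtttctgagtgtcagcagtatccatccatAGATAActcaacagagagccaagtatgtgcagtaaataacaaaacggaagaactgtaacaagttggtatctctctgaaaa
Il5ra: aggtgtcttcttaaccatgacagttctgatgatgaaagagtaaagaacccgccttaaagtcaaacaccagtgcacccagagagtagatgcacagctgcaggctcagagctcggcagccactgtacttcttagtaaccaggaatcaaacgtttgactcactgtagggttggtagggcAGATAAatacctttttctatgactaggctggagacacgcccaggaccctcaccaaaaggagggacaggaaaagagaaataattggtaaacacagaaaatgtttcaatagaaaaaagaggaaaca
In the Ccr3 window the word AGATAG and the word AGATAA begin at positions -64 and -30 from the start, and in the Il5ra window AGATAA begins at -74. At least 1 such word was found in 29.8% of 32851 RefSeq windows of this length, and 2 or more in 7.77%. A match describes letters and does not show binding.

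Most tested genes of the eosinophil list, which holds both receptors, had lower levels in dblGATA. Of 12 listed genes 7 were tested and 6 of the 7 had a negative log2 fold change, with a median of -1.23 beside -0.00 for all genes. Ccr3 and Cebpe passed, 2 of 7 where 6.39% of all genes were called lower. Ccr3 is itself a member, and a gene of low count could pass the count filter through WT alone. The counts and the median of this list are therefore a description only. Cebpe, a transcription factor of granulocyte maturation, had 9 to 55 counts in WT and 1 to 17 in dblGATA. Its log2 fold change was -2.33 ± 0.49 (edgeR, SE, adjusted p = 0.0179). The highest Cebpe level, 0.793 CPM, was in WT 3, the library with the mixed granulocyte signal, and the next in WT was 0.445 CPM. A fit of Cebpe without WT 3 is not given here. Siglecf, a surface lectin of eosinophils, stood at 0.267 ± 0.156 CPM (SD, n = 6) in WT and 0.114 ± 0.0652 CPM (SD, n = 7) in dblGATA and did not pass (edgeR adjusted p = 0.106). The ribonuclease gene Ear6 was at 0 counts in all dblGATA libraries and in 4 WT libraries, with 93 counts in WT 3 and 2 in WT 6. The Prg2 log2 fold change of -4.12 ± 1.29 (edgeR, SE, adjusted p = 0.0516) rested on WT 3. Summed over the list, levels ran from 5.94 to 26.7 CPM in WT and from 2.41 to 14.0 CPM in dblGATA. Much of that sum in dblGATA 5, dblGATA 6 and dblGATA 7 was Alox15 (7.60, 8.98 and 9.25 CPM), a lipoxygenase that macrophages and epithelium make too.

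Of the chemokine receptor genes near Ccr3 on chromosome 9, Ccr1 and Ccr2 did not pass the test. Ccr1, on one side, had a log2 fold change of 0.01 ± 0.22 (edgeR, SE, adjusted p = 0.975). Ccr2, the monocyte receptor on the other side, was at -0.15 ± 0.16 (edgeR, SE, adjusted p = 0.548). CCR1 and CCR2 also bind products of Ccl7 or Ccl8, and neither is particular to eosinophils. Ccr2 stood at 49.1 ± 12.5 CPM (SD, n = 6) in WT and 44.3 ± 8.24 CPM (SD, n = 7) in dblGATA.

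Il5, the eosinophil growth factor, was read at 95, 105, 58, 95, 81 and 111 counts in WT 1 to WT 6. The dblGATA libraries held 150, 68, 69, 87, 31, 64 and 55 counts. As levels, WT lay at 1.335 ± 0.407 CPM (SD, n = 6) and dblGATA at 0.859 ± 0.327 CPM (SD, n = 7), and the groups overlapped: 6 of 7 dblGATA libraries were below the WT median of 1.40 CPM, and dblGATA 1, at 1.49 CPM, was above it. The log2 fold change was -0.63 ± 0.26 (SE, unadjusted p = 0.0316, edgeR adjusted p = 0.118), with an interval of 2 SE from -1.16 to -0.10. It passed without dblGATA 1 (-0.82, edgeR adjusted p = 0.0344), and in no other fit that left out 1 library. The skeletal muscle list, summed, was at 27633 to 52485 CPM in WT and 20425 to 43337 CPM in dblGATA. Of its 16 genes 5 were called lower, where 6.39% of all genes were. The Il5 log2 fold change was -0.22 ± 0.32 (edgeR, SE, adjusted p = 0.912) with the muscle score as a covariate.

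Il13, the cytokine that acts on epithelium and fibroblasts, was near the limit of counting. It had 4, 7, 2, 3, 7 and 3 counts in WT 1 to WT 6 and 1, 1, 6, 5, 15, 14 and 11 counts in dblGATA 1 to dblGATA 7. The 3 highest libraries were dblGATA 5, dblGATA 6 and dblGATA 7 (0.227, 0.187 and 0.115 CPM), and the 2 lowest were dblGATA 1 and dblGATA 2, so dblGATA enclosed the whole WT range of 0.0289 to 0.0945 CPM. A fit without a count filter gave a log2 fold change of 0.64 ± 0.63 (edgeR, SE, adjusted p = 0.532). Il4, its neighbour in the type 2 cytokine locus, had at most 10 counts in any library, and Il25, another epithelial alarmin, at most 0.0534 CPM.

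Il5 and Il13 lie close together on chromosome 11, with Rad50 between them, and their start regions are shown beside those of the receptors since lymphoid cells use another GATA factor to express them. Il5 is on the plus strand at chr11:53720544-53720843 and Il13 on the minus strand at chr11:53634653-53634952 (RefSeq, GRCm38.p6), with capitals as above.
Il5: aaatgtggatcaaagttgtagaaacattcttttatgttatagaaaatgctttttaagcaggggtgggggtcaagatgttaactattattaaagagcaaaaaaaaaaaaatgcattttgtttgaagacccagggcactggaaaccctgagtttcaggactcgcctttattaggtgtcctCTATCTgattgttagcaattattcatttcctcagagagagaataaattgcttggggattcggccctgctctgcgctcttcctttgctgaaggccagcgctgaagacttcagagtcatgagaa
Il13: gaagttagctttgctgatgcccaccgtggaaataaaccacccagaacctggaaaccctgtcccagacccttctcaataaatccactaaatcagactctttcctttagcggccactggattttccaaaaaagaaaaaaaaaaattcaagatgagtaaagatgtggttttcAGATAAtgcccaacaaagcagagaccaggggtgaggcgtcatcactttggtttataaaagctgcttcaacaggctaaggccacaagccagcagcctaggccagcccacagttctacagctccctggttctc
Each window held 1 word, beginning at -72 in Il5, where it stands on the opposite strand, and at -81 in Il13. Of the other windows used, that of Ccl8 held 1 word, at -55, and neither of the 2 windows of Il33 held any. Their sequences are not printed.

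Ccl11 encodes eotaxin-1, the main mouse ligand of CCR3. It stood at 38.4, 37.0, 26.9, 35.96, 25.2 and 49.9 CPM in WT 1 to WT 6 and at 28.4, 22.9, 23.9, 32.3, 42.9, 51.7 and 48.7 CPM in dblGATA 1 to dblGATA 7. The group means were 35.6 ± 8.91 CPM (SD, n = 6) and 35.8 ± 11.9 CPM (SD, n = 7), and the libraries overlapped, with dblGATA holding both the lowest and the highest. The log2 fold change was 0.01 ± 0.22 (edgeR, SE, adjusted p = 0.977), and 2 SE reached from -0.42 to 0.44. The 3 highest dblGATA libraries, dblGATA 5, dblGATA 6 and dblGATA 7, were also the 3 highest for Il13.

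Ccl24, eotaxin-2, is made largely by macrophages. It stood at 1.67, 4.10, 3.03, 6.18, 2.95 and 7.32 CPM in WT 1 to WT 6, averaging 4.21 ± 2.14 CPM (SD, n = 6). The dblGATA libraries ranged from 2.51 to 4.64 CPM with a mean of 3.09 ± 0.732 CPM (SD, n = 7). WT enclosed all dblGATA values, and its 2 highest libraries, WT 6 and WT 4, were those rich in Rn18s. The log2 fold change was -0.44 ± 0.28 (edgeR, SE, adjusted p = 0.293), but 0.06 ± 0.23 without WT 4 and WT 6 and 0.15 ± 0.25 with Rn18s as a covariate. The direction of Ccl24 thus turned when those 2 libraries were left out.

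Ccl7 and Ccl8 encode monocyte chemoattractants that in part act on CCR3 as well, and mouse CCL8 is known as a ligand of CCR8. Ccl7 ranged from 3.14 to 5.75 CPM in WT (median 4.28) and from 3.48 to 6.25 CPM in dblGATA (median 4.21), a log2 fold change of 0.04 ± 0.16 (edgeR, SE, adjusted p = 0.892). Ccl8 stood at 18.2, 43.6, 18.8, 29.3, 21.8 and 30.5 CPM in WT 1 to WT 6 and at 37.4, 33.7, 23.6, 27.6, 27.2, 37.5 and 41.5 CPM in dblGATA 1 to dblGATA 7. All but 1 of the dblGATA libraries lay above the WT median of 25.6 CPM, but WT 2 was the highest of all. Its log2 fold change was 0.27 ± 0.20 (edgeR, SE, adjusted p = 0.366), and it was 0.46 without WT 2 (adjusted p = 0.0683).

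Ccl7, Ccl11 and Ccl8 belong to a cluster of CC chemokine genes on chromosome 11, in the order Ccl2, Ccl7, Ccl11, Ccl12, Ccl8, Ccl1. None of the 6 passed. From Ccl2 to Ccl1 their log2 fold changes were -0.14, 0.04, 0.01, 0.29, 0.27 and 0.03. Of 16 other CC chemokine genes, including 3 of that cluster, 1 was higher and 2 were lower in dblGATA, with a median log2 fold change of 0.02. Over all genes tested, 7.1% were called higher and 6.39% lower. The skin chemokine Ccl27a fell by 0.41 ± 0.11 on the log2 scale (edgeR, SE, adjusted p = 0.029), and Ccl3, an inflammatory chemokine, rose by 1.01 ± 0.30 from 0.117 CPM in WT (adjusted p = 0.0411). Ccl28, a mucosal chemokine that can also bind CCR3, had a log2 fold change of -3.04 ± 0.90 (adjusted p = 0.042), which rested on 15.2 CPM in WT 3 against 0.719 CPM or less in WT otherwise. Leaving out WT 3 gave -0.70. Ccl27a kept its call in 8 of 13 fits without 1 library and Ccl3 and Ccl28 in 3 of 13 each. Of the uncalled genes, Ccl6, Ccl21a, Ccl9 and Ccl22 were the most abundant, with log2 fold changes from -0.33 to 0.48.

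Il33 encodes a nuclear cytokine of epithelium and stroma that is released on damage. It stood at 54.8, 100.2, 76.7, 92.0, 74.4 and 80.0 CPM in WT 1 to WT 6 and at 79.6, 95.2, 114, 75.9, 119, 80.5 and 92.0 CPM in dblGATA 1 to dblGATA 7. The groups overlapped: dblGATA 3 and dblGATA 5 exceeded all WT libraries, and WT 1 and WT 5 lay below all dblGATA libraries. The log2 fold change was 0.23 ± 0.14 (edgeR, SE, adjusted p = 0.259), and the authors' deposited table gives 0.38 with an adjusted p of 0.0791. Once the skeletal muscle score was a covariate, it was -0.02 ± 0.18. Beside it, the basal epithelium list had 7 of 9 genes higher in dblGATA, where 7.1% of all genes were called higher. Its sums were 4769 to 6891 CPM in WT and 6471 to 9776 CPM in dblGATA. The suprabasal list had 1 of 10 higher, with sums of 29164 to 43531 CPM and 35984 to 72217 CPM. The part of epithelial content in the Il33 level was not tested.

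Tslp, the other epithelial alarmin, ranged from 0.822 to 2.12 CPM in WT (median 1.61) and from 0.960 to 2.07 CPM in dblGATA (median 1.48). The WT range enclosed every dblGATA library. Its log2 fold change was -0.04 ± 0.22 (edgeR, SE, adjusted p = 0.925), with 2 SE from -0.48 to 0.40.

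Receptor genes for these ligands, with related chains, were listed as context. Of 13 listed receptors and chains 12 were tested, 3 were higher and none was lower in dblGATA, with a median log2 fold change of 0.22, where 7.1% of all genes were called higher. Il1rap, the accessory chain of the interleukin-33 receptor and of other interleukin-1 family receptors, averaged 15.8 ± 1.08 CPM in WT (SD, n = 6) and 20.6 ± 2.23 CPM in dblGATA (SD, n = 7), with a log2 fold change of 0.38 ± 0.08 (edgeR, SE, adjusted p = 0.0172). Its WT libraries lay between 14.9 and 17.7 CPM and its dblGATA libraries between 17.4 and 24.2 CPM, so that only WT 2 and dblGATA 1 crossed, and all 13 fits without 1 library kept the call.

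Of the chains that bind interleukin-13, Il4ra and Il13ra1 passed, each in fewer than 7 of the 13 fits without 1 library. Il4ra, shared by the interleukin-4 and interleukin-13 receptors, rose by 0.57 ± 0.16 and Il13ra1, its partner for interleukin-13, by 0.48 ± 0.13 on the log2 scale (edgeR, SE, adjusted p = 0.0341 and 0.0343). Il4ra was at 25.5 to 29.1 CPM in WT and 29.0 to 60.3 CPM in dblGATA, and Il13ra1 at 47.1 to 66.1 and 55.4 to 102 CPM. Without 1 library, Il4ra kept the call in 6 of 13 fits and Il13ra1 in 5 of 13 (highest edgeR adjusted p = 0.0713 for each). Both lost it without WT 1, WT 3, WT 4, WT 6, dblGATA 5 or dblGATA 7, Il4ra also without dblGATA 4, and Il13ra1 also without WT 5 or dblGATA 3. Once the skeletal muscle score was a covariate, Il1rap, Il4ra and Il13ra1 had log2 fold changes of 0.21, 0.30 and 0.18, and none passed. The part of the epithelial genes above, which also ran higher in dblGATA, in these 3 results was not tested. Il13ra2, the decoy receptor, was at 0.0865 CPM in WT and 0.0800 CPM in dblGATA, too low to test.

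The specific chains of the alarmin receptors did not pass. Il1rl1, the ST2 chain that binds interleukin-33, was at 5.23 ± 1.15 CPM in WT (SD, n = 6) and 5.52 ± 1.22 CPM in dblGATA (SD, n = 7), its log2 fold change of 0.08 ± 0.17 (edgeR, SE, adjusted p = 0.787). Crlf2, which binds thymic stromal lymphopoietin, was at 10.4 ± 0.998 and 10.3 ± 1.49 CPM, and its partner Il7r at 7.39 ± 2.37 and 10.05 ± 2.76 CPM (edgeR adjusted p = 0.916 and 0.164). The beta chain Csf2rb, the partner of Il5ra, had a log2 fold change of 0.20 ± 0.12 (edgeR, SE, adjusted p = 0.267). Its mouse paralog Csf2rb2, not taken here as a partner of Il5ra, was at 0.33 ± 0.13 (adjusted p = 0.108). Reads may be shared between the 2 copies.

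**Figure D3:**
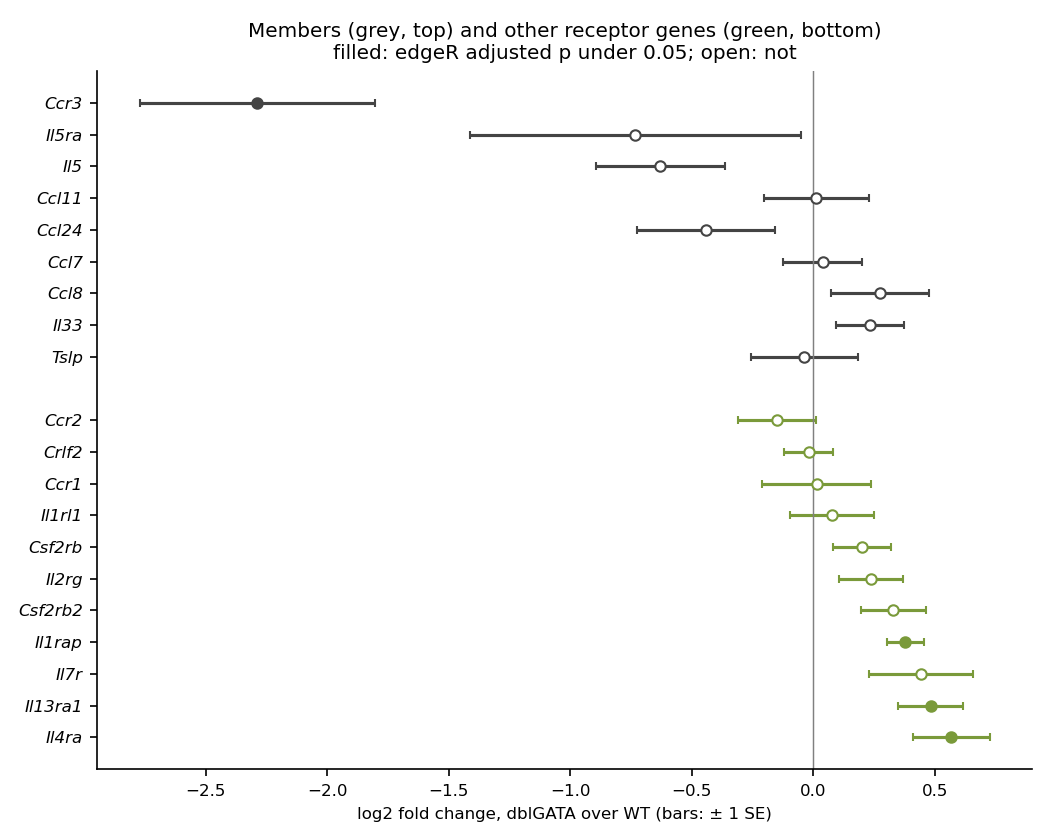
Log2 fold changes (dblGATA over WT, x axis) are drawn with bars of 1 SE. The 9 tested members are grey (top) and 11 genes of the list of receptors and related chains green (bottom). Points are filled where the edgeR adjusted p was under 0.05. Ccr3 at -2.29 lies far to the left, and Il1rap, Il13ra1 and Il4ra are the filled points to the right of 0.

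Set on a scale per length (CPM per kilobase of merged exons, GENCODE M21, which may differ from the annotation behind the counts), the ligands other than Il13 were above the receptors in WT. Ccl8 was at 52.9 ± 18.9 (SD, n = 6), Ccl11 at 32.9 ± 8.23, Il33 at 27.6 ± 5.43, Ccl7 at 5.42 ± 1.12, Ccl24 at 3.25 ± 1.65, Tslp at 1.18 ± 0.332 and Il5 at 0.869 ± 0.265. Below them stood Ccr3 at 0.208 ± 0.103, Il5ra at 0.106 ± 0.0993 and Il13 at 0.04999 ± 0.0195. The WT ranges of neighbours in this order overlapped, except that Il33 (lowest 19.0) lay wholly above Ccl7 (highest 7.18) and Il5 wholly above Ccr3. The lowest WT level of Il5 (0.544) was above the highest of Ccr3 (0.343). In dblGATA, Ccr3 fell to 0.0424 ± 0.0355 on this scale and ranked below Il5ra (0.0646 ± 0.0649) and Il13 (0.0803 ± 0.0698), with overlapping ranges.

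The genes most like each member in library-to-library variation were taken by the highest Pearson r of log2 CPM after subtracting group means, over 13 libraries and as a description only. For Ccl11 they were Sprr2a3, Sprr2a2 (both small proline-rich proteins of the epithelial envelope) and Chil4, a chitinase-like protein made by epithelium in type 2 inflammation, with r of 0.95, 0.93 and 0.92. Chil4 stood at 12387, 8662 and 11352 CPM in dblGATA 5, dblGATA 6 and dblGATA 7, at 737 to 2560 CPM in the other dblGATA libraries and at 717 to 5896 CPM in WT. Sprr2a2 was at 9944, 6740 and 9923 CPM in those 3 libraries and at most 5585 CPM in any other. The libraries high in Il13 and Ccl11 within dblGATA were thus the ones high in Chil4, Sprr2a2 and Alox15. Other genes of the interleukin-4 and interleukin-13 response list did not all peak there. Among dblGATA libraries, Arg1 was highest in dblGATA 7 (170 CPM). Retnla (240 CPM) and Tgm2 (278 CPM) were highest in dblGATA 1, and Postn (317 CPM) in dblGATA 4. The near-identical Sprr2a copies share reads, so their split is uncertain.

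**Figure D4:**
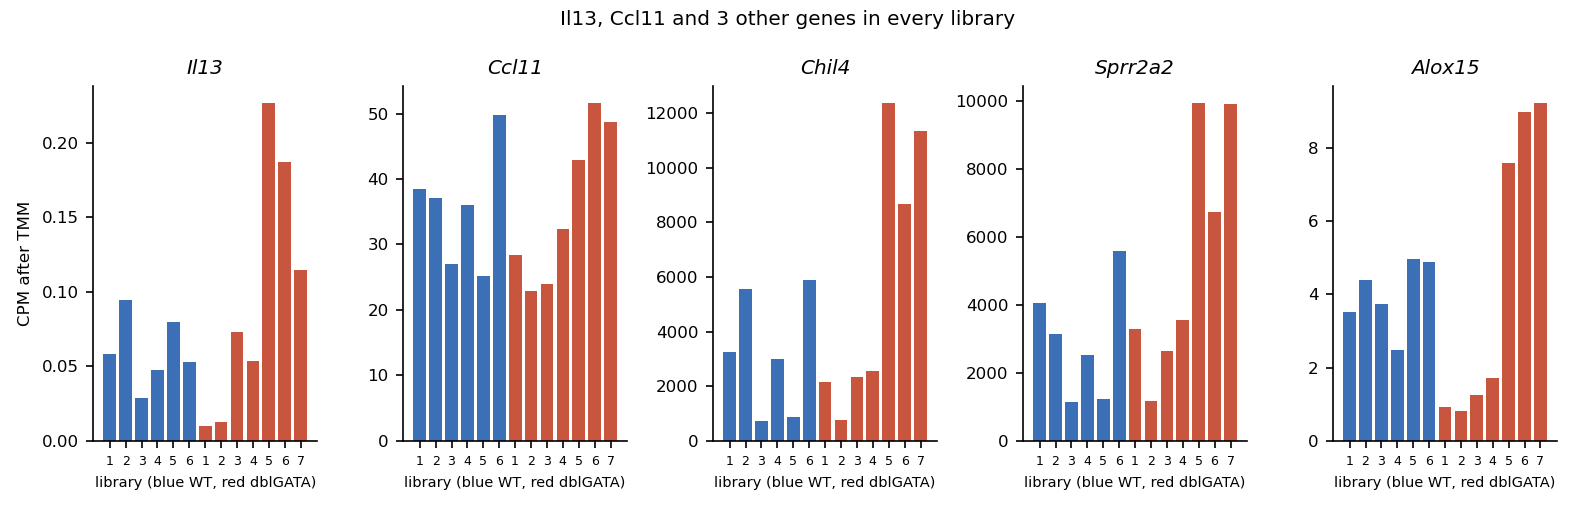
Bars give the level in CPM (linear axis from 0) of Il13, Ccl11, Chil4, Sprr2a2 and Alox15 in each library, numbered as in the labels (blue, WT; red, dblGATA). In all 5 panels dblGATA 5, dblGATA 6 and dblGATA 7 are the highest dblGATA libraries; for Ccl11, WT 6 reaches 49.9 CPM, between them.

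For Ccl24 the most alike genes were F13a1, Cd209f and Folr2 (r of 0.95, 0.94 and 0.93), of which F13a1 and Folr2 are markers of tissue macrophages. The 12 macrophage genes listed gave no call, with sums of 329 to 781 CPM in WT and 542 to 709 CPM in dblGATA, lowest in WT 1 and highest in WT 6 as for Ccl24. For Il33 they were Mpzl3, Serpinb12 and Otub2 (each r of 0.95), the first 2 known from differentiating epithelium. For Il5ra they were Iglc2, an immunoglobulin light chain gene, Wdfy4 and Themis2 (r of 0.91, 0.90 and 0.89), the latter 2 known from B cells and dendritic cells.

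For Il5 the most alike genes were Mlf1, Tph2 and Acyp2 (r of 0.94, 0.94 and 0.93), all of them lower in dblGATA (log2 fold changes of -0.70, -0.84 and -0.56, edgeR adjusted p from 0.0208 to 0.0266). Acyp2 is the muscle-type acylphosphatase. Ccl7 was closest to Gpat3, Ccr1 and Ptgir, Ccl8 to Zfp277, Clec4b1 and Coa6, and Tslp to Zfp637, Hikeshi and Mrps15, with r between 0.83 and 0.95. Ccr3 had Xlr, Tmem218 and Tmem219 (each r of 0.87 or 0.88), and none of the 3 passed the test.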

How the data were processed

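RNA of whole esophagus was prepared from tissue kept in a preservative, with column clean-up, DNase digestion and a stranded poly-A library kit, per the labels' protocols. Whole numbers per gene and library, deposited by the authors, were read here as estimated counts rounded before deposit. A second sheet deposited by the authors holds normalized signal, whose factors vary by gene, and the submitters' processing notes list DESeq2 1.34.0. The deposited log2 fold changes and p-values are the authors' own. No aligner, counter or build is given in the sources used here.

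Genes were kept by filterByExpr (minimum count 10, minimum total 15), which left 16599, and fitted with edgeR 4.0.16 under R 4.3.3 (TMM, robust quasi-likelihood, two-sided), with Benjamini-Hochberg adjustment over all tested genes and a threshold of 0.05. The SE of a log2 fold change is its size over the root of F. The floor, 3 counts, equals 0.0299 to 0.0526 CPM and covers counting error only. No 2 libraries of a group agreed within sampling noise (chi-square per degree of freedom at least 58.4). Alternatives used DESeq2 1.42.0, limma 3.58.1, other scalings, filters, covariates and left-out libraries.

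The members and lists were chosen with earlier results of these data known, and members were printed whatever their call. Of each list, up to 6 called genes by adjusted p and up to 4 uncalled by level could be named, and direct receptor chains always. Named outside this rule, after values were seen, were chromosomal neighbours of members, Ear6, Il4, Il25 and genes of the sample checks. Genes alike were the 3 highest by r among those with at least 1 CPM, without predicted genes. Chil4 and Sprr2a2 were followed by library after their values were seen, as were the peak libraries of Arg1, Retnla, Tgm2 and Postn. A gene of the receptor list is counted there but not reported here. RefSeq promoter windows were used for 6 of 10 members.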

Additional observations from a re-analysis of the deposited data

Results flagged for a closer look

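Within its group, a library stood far from the others in 3 of 20 checks (10 genes in 2 groups), where chance gives about 1 in 20 for normally spread values. The checks used CPM and not a log scale, and skewed values can be flagged more often. Nor are the checks independent, since the flags for Ccr3 and Il5ra fell on the same library. The Ccl24 level of dblGATA 1 was 4.64 CPM, with the next dblGATA library at 3.15 CPM. The Ccr3 level of dblGATA 6 was 0.387 CPM, with the next at 0.139 CPM, and its Il5ra level was 0.708 CPM, with the next at 0.302 CPM. Without dblGATA 6 the log2 fold changes of Ccr3 and Il5ra were -2.77 and -1.31.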

How the results depend on the processing

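Of 258 refitted log2 fold changes of the 9 tested members, 224 kept direction and side of the threshold, 3 lost the call (Ccr3, values above), 1 gained it (Il5 without dblGATA 1) and 30 changed sign, all in genes that passed in neither case. The number of members called stayed at 1 except for 0 without WT 4 and WT 6, with the muscle score, with Rn18s as a covariate and with a filter of 1 CPM in 6 libraries (where Ccr3 was not tested), and it was 1 to 2 without 1 library. All genes called numbered 2239, 3536 with DESeq2, 880 with the replicate block, 357 (without WT 6) to 3828 (without WT 2) without 1 library, and 0 in edgeR without WT 4 and WT 6, with the muscle score or with Rn18s, where 3542, 1073 and 3912 genes had an unadjusted p under 0.05. Other libraries whose removal moved that count by over 1.5 times were WT 1 (1206), WT 4 (396), dblGATA 3 (754), dblGATA 5 (535) and dblGATA 7 (546). The cause of these shifts was not tested.

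Signs changed as follows. Ccl11 was at -0.015 with limma-voom, -0.018 with upper-quartile scaling, -0.11 with the replicate block, -0.15 with the muscle score, -0.17 without WT 3 and WT 5 and -0.17 without dblGATA 6 and WT 3, and ran from -0.10 to 0.13 without 1 library. Tslp was at 0.0033 with limma-voom, 0.0078 with the replicate block, 0.15 without WT 4 and WT 6, 0.069 with the muscle score, 0.12 with Rn18s, 0.029 on the authors' normalized signal and 0.021 in the authors' deposited table, and ran from -0.17 to 0.061. Ccl7 was at -0.052 without dblGATA 6 and WT 3 and ran from -0.060 to 0.13. Ccl24 was at 0.065 without WT 4 and WT 6 and 0.15 with Rn18s, Il5ra at 0.10 without WT 3 and WT 5, and Il33 at -0.017 with the muscle score. The Xist covariate and the removal of dblGATA 6 with WT 3 were chosen after seeing the data. Replicate numbers did not pair the samples (r of same-numbered libraries -0.09 to 0.04 over 6 pairs), and the block changed no member's call.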

Other observations

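The list of the interleukin-4 and interleukin-13 response gave 1 call among 12 tested genes, where 7.1% of all genes were called higher. That call was Stat6, a carrier of the signal and not a gene taken to answer it. Stat6, the transcription factor both cytokines act through, averaged 100.4 ± 5.04 CPM in WT (SD, n = 6) and 119.8 ± 10.4 CPM in dblGATA (SD, n = 7), with a log2 fold change of 0.25 ± 0.06 (edgeR, SE, adjusted p = 0.025). It kept the call in 8 of 13 fits without 1 library and lost it without WT 4, WT 6, dblGATA 3, dblGATA 5 or dblGATA 7. None of the other 11 tested passed, and the 12 had a median of 0.15. Among the most abundant, Chil4 had a log2 fold change of 0.84 ± 0.69, Postn, a matrix protein of allergic tissue, 0.24 ± 0.15, Tgm2, a transglutaminase, -0.26 ± 0.14 and Retnla -0.57 ± 0.30 (edgeR, SE, adjusted p from 0.202 to 0.424).

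Genes of the cells that make interleukin-5 and interleukin-13 did not pass either. Of 9 tested genes of innate lymphoid and T helper type 2 cells none was called (median 0.31), with Arg1, Rora, Bcl11b and Icos at 0.36, 0.05, 0.31 and 0.55 on the log2 scale. None of 11 genes of alarmin-processing proteases and other alarmins was called (median 0.12), and Spink5, a protease inhibitor of stratified epithelium, had 0.38 ± 0.13 (edgeR, SE, adjusted p = 0.0578). Of 8 other type 2 and eosinophil cytokines 2 were tested and neither passed. Areg, an EGF receptor ligand, was at 11.2 CPM in dblGATA 4 and at most 3.34 CPM elsewhere.

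For the cell type lists, the share called over all genes was 7.1% higher and 6.39% lower. Beside it, mast cells and basophils had 1 of 12 tested genes higher (Ms4a2) and 1 lower (Mcpt4), T cells 1 of 8 higher (Foxp3), neutrophils 1 of 6 lower (Retnlg), smooth muscle 1 of 7 lower (Des) and adipocytes 1 of 10 lower (Lpl). Retnlg reached 4.99 CPM in WT 3, the library with the mixed granulocyte signal, and at most 0.842 CPM in WT otherwise. A fit of Retnlg without WT 3 is not given here. Fibroblasts and endothelium, 10 genes each, and 5 tested genes of thyroid, airway and stomach had no called gene.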
